A study of Mus musculus with 20 samples.

Results

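The 9 genes described here encode the non-collagen scaffold of the kidney's basement membranes: the laminin chains Lama1, Lama2, Lama5, Lamb1, Lamb2 and Lamc1, the nidogens Nid1 and Nid2, and the heparan sulfate proteoglycan agrin (Agrn). They were taken by symbol from the 47069 Ensembl genes of the count table, and all 9 were among the 17622 genes with enough counts to be tested. RNA of the whole kidney was sequenced from 20 male mice at 15 weeks of age. F1 hybrid Col4a3-/- mice (129SJ x C57Bl/6J), a model of Alport syndrome, had been given from 5 weeks of age either PBS under the skin weekly (Veh, 6 mice), the anti-miR-21 oligonucleotide lademirsen at 50 mg/kg by the same route and schedule (Anti-miR-21, 6 mice), or the angiotensin-converting enzyme inhibitor ramipril at 11 mg/L in drinking water together with the PBS injections (ACEi, 3 mice). The WT group held 5 untreated littermates with intact Col4a3, so Veh and WT differed in genotype and in the injections. Mice are named by the tag of their library, such as A18.

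Laminins are trimers of an alpha, a beta and a gamma chain that assemble into a sheet on the surface of cells. Nidogens tie that sheet to the network of type IV collagen, and agrin binds laminin at one end of the molecule and cell surface dystroglycan at the other. In the mature glomerular basement membrane the main trimer is built from the products of Lama5, Lamb2 and Lamc1, and Col4a3 encodes a chain of the collagen network that this membrane lacks in Alport syndrome.

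On GRCm38, the build of the deposited tables, the genes lie on 9 chromosomes. The alpha chain genes are Lama1 (ENSMUSG00000032796, chr17:67697259-67822647, plus strand), Lama2 (ENSMUSG00000019899, chr10:26980036-27619758, minus strand) and Lama5 (ENSMUSG00000015647, chr2:180176373-180225859, minus strand). The beta and gamma chain genes are Lamb1 (ENSMUSG00000002900, chr12:31265234-31329644, plus strand), Lamb2 (ENSMUSG00000052911, chr9:108479736-108490530, plus strand) and Lamc1 (ENSMUSG00000026478, chr1:153218922-153332786, minus strand). The nidogen genes are Nid1 (ENSMUSG00000005397, chr13:13437551-13512269, plus strand) and Nid2 (ENSMUSG00000021806, chr14:19751265-19811787, plus strand), and Agrn (ENSMUSG00000041936) is at chr4:156165290-156197488 on the minus strand. In GENCODE M21, Lama2 spans 6 other annotated genes, 5 of them on the other strand, Lamc1 spans 2, and Lama5, Nid1 and Nid2 each meet 1. Whether the counting used strand was not stated, so reads in those overlaps could belong to either gene. The overlap of Nid2 is with the protein-coding gene Rtraf on the other strand.

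Lademirsen is directed at miR-21, so the mature mouse sequence is shown with its seed, bases 2 to 8, in capitals (RefSeq, GRCm38.p6, chr11:86584120-86584141, minus strand).
mmu-miR-21a-5p: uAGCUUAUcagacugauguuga
The complement of that seed, ATAAGCT, was looked for on the sense strand of the longest annotated 3′ untranslated region of each gene. None of the 9 members held it, against 1511 of 21037 protein-coding genes, or 7.18%. These regions are short for most members, with a median of 210 bases against 960 bases over all genes, and range from 110 bases in Lamb2 to 2551 bases in Lamc1. The search covers exact matches in these transcripts only.

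RefSeq promoter sequences, 250 bases before to 50 after the start (GRCm38.p6), were held for 6 of the 9 members. Shown are those of Lama5 and Agrn, whose levels ran closely together across the mice, and of Lama2 and Nid1, a pair that followed another course, with matches to GGGCGG on either strand in capitals.
Lama5, chr2:180225810-180226109, minus strand: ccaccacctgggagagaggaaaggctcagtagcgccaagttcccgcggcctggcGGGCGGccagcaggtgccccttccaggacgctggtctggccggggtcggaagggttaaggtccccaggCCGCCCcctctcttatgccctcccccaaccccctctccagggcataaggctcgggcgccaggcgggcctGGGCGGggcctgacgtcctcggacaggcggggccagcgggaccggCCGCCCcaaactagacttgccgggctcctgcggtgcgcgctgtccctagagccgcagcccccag
Agrn, chr4:156197439-156197738, minus strand: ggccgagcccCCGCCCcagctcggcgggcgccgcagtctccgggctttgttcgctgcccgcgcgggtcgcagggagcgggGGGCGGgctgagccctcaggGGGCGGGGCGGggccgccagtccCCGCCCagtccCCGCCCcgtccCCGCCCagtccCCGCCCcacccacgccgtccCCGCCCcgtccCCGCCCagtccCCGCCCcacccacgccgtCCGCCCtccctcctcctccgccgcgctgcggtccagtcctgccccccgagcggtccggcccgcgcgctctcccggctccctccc
Lama2, chr10:27616893-27617192, minus strand: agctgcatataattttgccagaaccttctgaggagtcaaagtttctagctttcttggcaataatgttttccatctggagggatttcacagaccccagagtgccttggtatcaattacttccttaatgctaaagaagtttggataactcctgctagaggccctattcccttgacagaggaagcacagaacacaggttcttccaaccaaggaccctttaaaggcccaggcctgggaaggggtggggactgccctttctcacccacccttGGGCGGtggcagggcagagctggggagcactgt
Nid1, chr13:13437352-13437651, plus strand: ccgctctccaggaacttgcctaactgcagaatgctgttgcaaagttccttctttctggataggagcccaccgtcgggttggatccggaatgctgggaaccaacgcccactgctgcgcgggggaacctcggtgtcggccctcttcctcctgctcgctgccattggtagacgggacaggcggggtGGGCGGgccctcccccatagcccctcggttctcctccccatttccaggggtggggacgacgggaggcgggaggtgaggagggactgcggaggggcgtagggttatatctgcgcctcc
The Agrn promoter shown held 12 matches, some of them overlapping, and a GC content of 83.3%. Another Agrn entry, at chr4:156186210-156186509, held 2 at 61.3% GC. Lama5 held 4 at 72.7% GC, and Nid1 and Lama2 held 1 each at 64.7% and 50.3% GC. Of the entries not shown, Lamb1 held 2 at 63.7% GC. Lamb2 held 0 at 44% GC, though its levels ran as closely with Lama5 as those of Agrn did. Whether matches go with the course of the levels was not tested. Over all 32851 promoters listed, 35.7% held at least 1 match and the median GC content was 52.7%. TATAAA and the AP-1 motif TGANTCA, searched on both strands, were in none of the members' 7 promoter entries, against 13.6% and 7.81% of all promoters. These are matches of letters and say nothing of which factors bound there.

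Each mouse gave between 28474301 and 29479629 estimated counts on genes. Col4a3 had a mean level of 217 ± 16.4 (SD, n = 5) CPM (a gene's share of the counts of its library, scaled by TMM to a common effective total) in WT and 37.8 ± 7.63 (n = 6) in Veh, and every Col4a3-/- mouse lay below every WT mouse. Proximal tubule markers summed to 11689 to 14986 CPM in WT and to 1291 to 3629 CPM in Veh, and the TMM scaling factors differed between groups, at 0.771 to 0.850 in WT against 1.12 to 1.26 in Veh. With library totals alone in place of TMM, the median gene was 0.65 higher on the log2 scale in Veh than in WT, against 0.07 with TMM, so a difference under that size depends on the scaling. The libraries of Veh mice A1, A4 and A9 and Anti-miR-21 mouse A12 held 90.1 to 120 CPM of adipocyte markers, against at most 22.4 CPM in the others.

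Most of the laminin, nidogen and agrin genes rose in Veh. Against WT, edgeR's quasi-likelihood test called 7 of the 9 members higher (39.0% of all tested genes were), 1 lower (34.0% of all genes) and left Nid2 uncalled, and 8 members had groups that did not overlap (54.9% of all genes). The median log2 fold change of the members was 1.08, against 0.07 over all genes. In whole tissue, fewer cells of a type and less RNA per cell cannot be told apart.

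**Figure D1:**
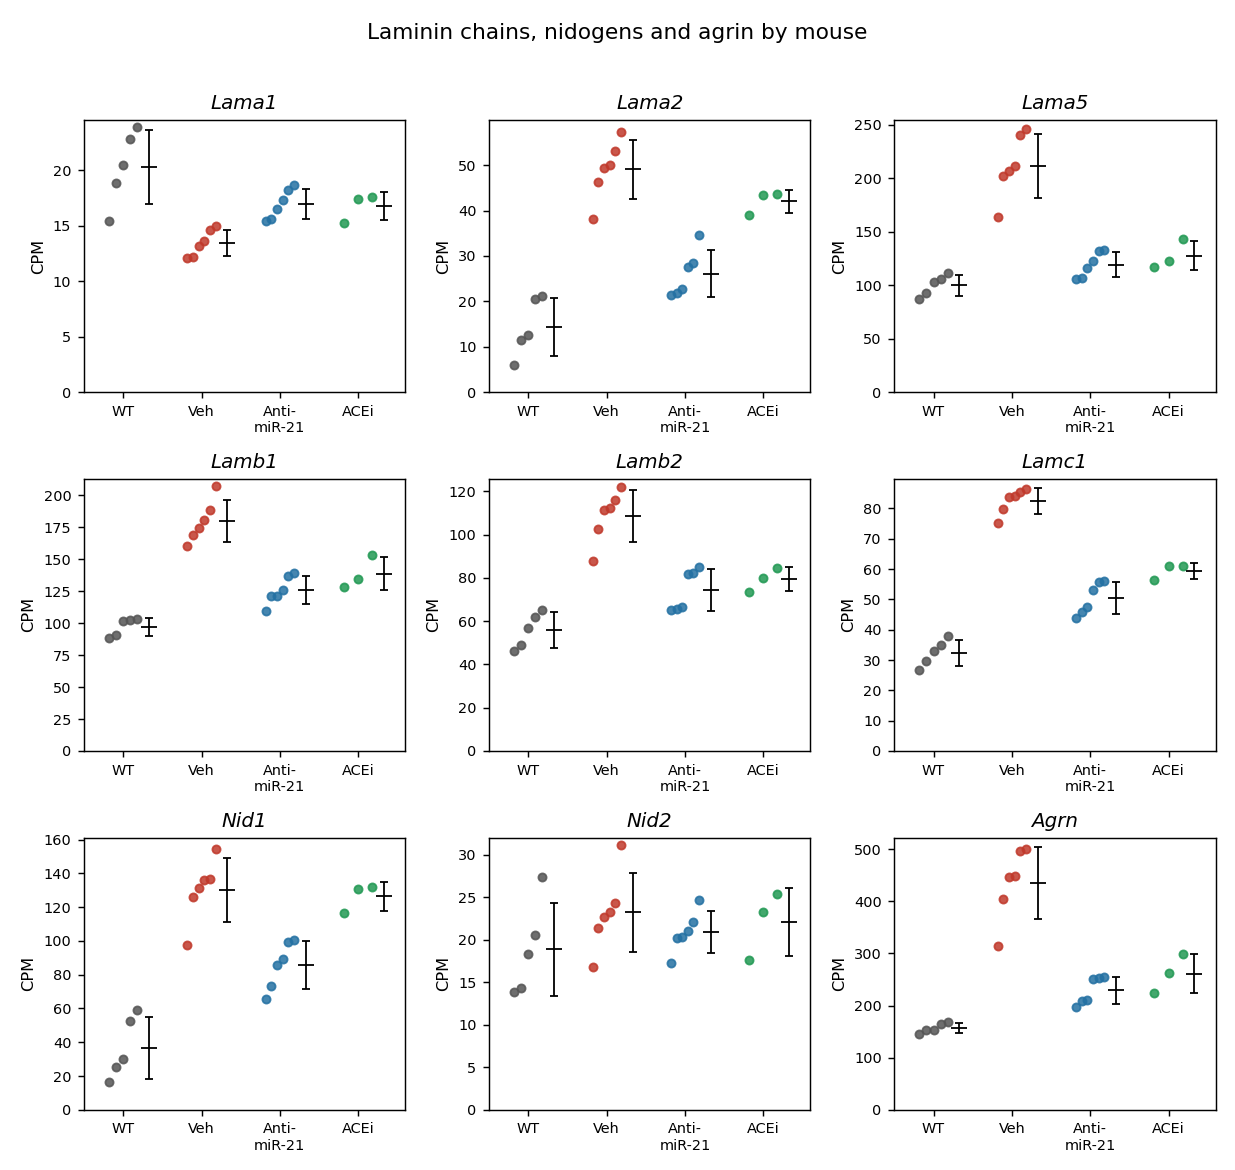
Level of each of the 9 genes in CPM after TMM scaling (vertical axes, from 0) in every mouse of the WT, Veh, Anti-miR-21 and ACEi groups, with the mean and SD in black. Veh lies above WT in 7 panels, Lama1 is the member with Veh below WT on this scale (with library totals they are level), and in Nid1 and Lama2 the ACEi mice sit near or within the Veh range.

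Lama5, the alpha chain of the mature glomerular laminin, measured 87.1, 103, 111, 106 and 92.3 CPM in the WT mice and from 163 over a median of 209.2 to 247 CPM in Veh. It ran from 106 over 119 to 133 CPM in Anti-miR-21, and at 143, 117 and 123 CPM in ACEi. All Veh mice were above all other mice, the ACEi mice lay above all WT mice, and the Anti-miR-21 mice began within the WT range. Veh exceeded WT by a log2 fold change of 1.08 ± 0.10 (SE; 2.12-fold, adjusted p = 5.93e-09, edgeR). Against Veh, Lama5 fell by 0.83 ± 0.09 on the log2 scale in Anti-miR-21 (adjusted p = 4.38e-07) and by 0.73 ± 0.12 in ACEi (adjusted p = 9.23e-05).

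Lama2 encodes the alpha chain of muscle laminin, which in the kidney is a component of the mesangial matrix. It was at 11.4, 20.6, 21.1, 12.5 and 6.00 CPM in WT and from 38.2 over 49.7 to 57.4 CPM in Veh, a mean 3.43 times as high (log2 fold change 1.78 ± 0.22, adjusted p = 4.35e-07). WT mice A6 and A14 had over 3 times the level of A18, so the size of this rise depends on which WT mice are compared. Anti-miR-21 ran from 21.4 over 25.1 to 34.7 CPM, below every Veh mouse (log2 fold change -0.91 ± 0.20, adjusted p = 0.000627). The 3 ACEi mice were at 39.1, 43.3 and 43.6 CPM, within the Veh range, and their difference from Veh of -0.23 ± 0.24 did not pass the test (95% interval -0.74 to 0.29, adjusted p = 0.489).

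Lama1, the alpha chain typical of early embryonic and tubular basement membranes, went the other way under TMM scaling. Its level was 20.4, 23.95, 22.8, 15.5 and 18.8 CPM in WT and ran from 12.1 over 13.4 to 15.0 CPM in Veh, all below the lowest WT mouse (log2 fold change -0.59 ± 0.10, adjusted p = 1.26e-05). Anti-miR-21 mice ran from 15.4 over 16.95 to 18.7 CPM and ACEi mice were at 17.6, 17.4 and 15.3 CPM. Both were called above Veh, by 0.34 ± 0.09 (adjusted p = 0.00375) and 0.32 ± 0.11 (adjusted p = 0.0278), the latter a call that was lost without ACEi mouse A11 (adjusted p = 0.101) or A13 (adjusted p = 0.0963). These differences follow the scaling: with library totals alone Veh and WT differed by -0.01 (adjusted p = 0.929), and in the deposited FPKM all 4 groups had means between 1.75 and 1.81. Lama1 therefore kept its share of the reads while the median gene gained in Veh, and it was lower only relative to the median gene.

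The partner chains of Lama5 moved in the same direction, the beta chains by somewhat less and Lamc1 by somewhat more in Veh. Lamb2, the beta chain of the mature glomerular laminin, was at 49.2, 62.0, 56.7, 65.4 and 46.1 CPM in WT and from 87.7 over 112 to 122 CPM in Veh (log2 fold change 0.96 ± 0.11, adjusted p = 6.42e-08). Lamb1, the beta chain it replaces in that membrane during development, ran at 91.1, 102, 102, 103 and 88.0 CPM in WT and from 160 over 177 to 206.99 CPM in Veh (0.89 ± 0.08, adjusted p = 2.67e-09). Both beta chains were higher in every Veh mouse than in any WT mouse. Lamc1, the gamma chain of most kidney laminins, was at 26.9, 37.8, 34.9, 32.9 and 29.7 CPM in WT and from 75.1 over 84.0 to 86.4 CPM in Veh, where its coefficient of variation was the lowest of the members at 5.20%. Its rise was 1.35 ± 0.08 (2.54-fold, adjusted p = 3.09e-11).

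Under treatment all 3 of these chains were lower than in Veh. Lamb1 ran from 110 to 139 CPM in Anti-miR-21 (log2 fold change -0.52 ± 0.07, adjusted p = 5.66e-06) and stood at 153, 128 and 135 CPM in ACEi (-0.37 ± 0.09, adjusted p = 0.00285). Lamb2 ran from 65.1 to 85.3 CPM in Anti-miR-21 (-0.55 ± 0.10, adjusted p = 8.46e-05) and stood at 84.4, 73.5 and 80.2 CPM in ACEi (-0.45 ± 0.12, adjusted p = 0.0061). Neither chain's treated mice overlapped with Veh. Lamc1 ran from 43.9 to 56.0 CPM in Anti-miR-21 (-0.71 ± 0.08, adjusted p = 2.51e-07) and stood at 60.9, 56.4 and 60.9 CPM in ACEi (-0.47 ± 0.10, adjusted p = 0.000684), so that each ACEi mouse lay above each Anti-miR-21 mouse and below each Veh mouse.

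The 2 nidogens parted. Nid1, the widely expressed linker of laminin to type IV collagen, had the highest rise of the members over all mice (in flow cell A alone it was that of Agrn): 25.6, 58.9, 52.6, 29.8 and 16.3 CPM in WT against 97.4 over 133 to 154 CPM in Veh (log2 fold change 1.83 ± 0.24, 3.55-fold, adjusted p = 6.85e-07). As for Lama2, WT spread widely, with a coefficient of variation of 49.8%, A6 and A14 at the top and A18 at the bottom. Anti-miR-21 mice ran from 65.8 over 87.4 to 101 CPM, and 2 of them, A2 and A8, exceeded the lowest Veh mouse, A1 (-0.60 ± 0.21, adjusted p = 0.0207). That call was lost without Veh mouse A20 (adjusted p = 0.0539) or Anti-miR-21 mouse A22 (adjusted p = 0.0504). ACEi mice were at 117, 132 and 131 CPM, inside the Veh range, and differed from it by -0.04 ± 0.26 (95% interval -0.59 to 0.50, adjusted p = 0.912).

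Nid2, its paralog, was at 13.9, 27.4, 20.6, 18.3 and 14.4 CPM in WT and from 16.8 over 22.9 to 31.1 CPM in Veh. The groups overlapped and the difference of 0.30 ± 0.16 did not pass the test (adjusted p = 0.106). It did pass with library totals alone (0.88), in FPKM, without WT mouse A6 or without Veh mouse A1, so its call depends on the scaling and on single mice. Anti-miR-21 ran from 17.2 over 20.7 to 24.7 CPM and ACEi was at 25.4, 23.3 and 17.6 CPM. With TMM, neither treatment's difference from Veh passed the test, at -0.15 ± 0.15 (adjusted p = 0.413) and -0.07 ± 0.19 (adjusted p = 0.79). The Anti-miR-21 difference did pass with library totals alone (-0.49, edgeR, adjusted p = 0.0159). It also passed with limma on log2(FPKM + 1) (-0.43, adjusted p = 0.0172), so this call too depends on the scaling. The ACEi difference passed in neither (adjusted p = 0.175 and 0.165).

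Agrn, the large proteoglycan that binds laminin and dystroglycan, was the member with the most reads. It was at 146, 154, 168, 164 and 153 CPM in WT, with a coefficient of variation of 5.80%, and from 315 over 448 to 501 CPM in Veh, with A16 the lowest (log2 fold change 1.47 ± 0.11, 2.77-fold, adjusted p = 3.43e-10). Anti-miR-21 mice ran from 197 over 230 to 254 CPM and ACEi mice were at 298, 224 and 262 CPM. Both treated groups lay wholly between WT and Veh. Agrn fell by 0.93 ± 0.10 in Anti-miR-21 (adjusted p = 3.44e-07) and by 0.74 ± 0.13 in ACEi (adjusted p = 0.000196), both on the log2 scale.

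**Figure D2:**
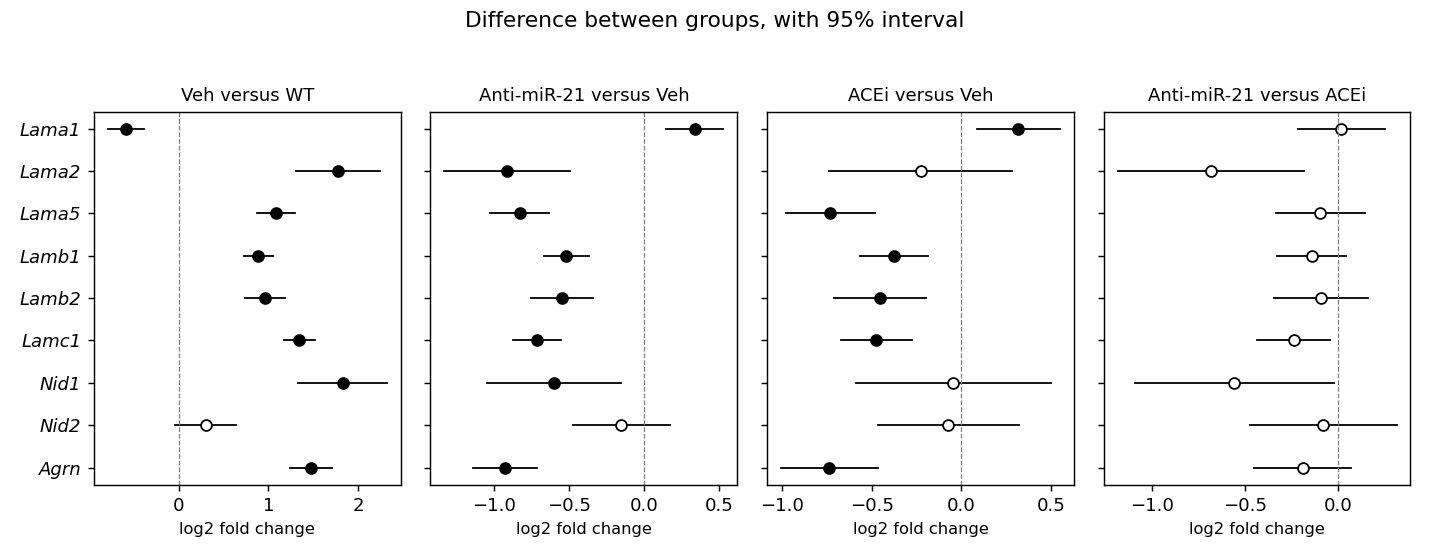
Log2 fold change (horizontal axes) of each of the 9 genes in 4 comparisons, with the 95% interval from the edgeR fit; filled points passed an adjusted p of 0.05 and open points did not. Lama2 and Nid1 are called in Veh against WT and in Anti-miR-21 against Veh but not in ACEi against Veh, and no gene is called between the treatments.

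Over the 9 members, Anti-miR-21 lowered 7 against Veh (30.5% of all tested genes were called lower). Under TMM scaling it raised Lama1 (28.8% were called higher) and left Nid2 uncalled, though Nid2 was called lower with library totals alone. In 7 members the groups did not overlap (36.4% of all genes). ACEi lowered 5, namely Lama5, Lamb1, Lamb2, Lamc1 and Agrn (19.1% of all genes were called lower), raised Lama1, again under TMM scaling (21.0%), and left Lama2, Nid1 and Nid2 uncalled, with 6 members not overlapping (38.6%). The members' median log2 fold change was -0.60 in Anti-miR-21 and -0.37 in ACEi, against -0.04 and -0.05 over all genes. Both comparisons use the same 6 Veh mice. Without the 4 libraries rich in adipocyte markers, which leaves 3 Veh mice, 6 members were called in Anti-miR-21 and 4 in ACEi: Lama1 lost its call in both, Nid1 in Anti-miR-21 (-0.67, adjusted p = 0.0631) and Lamb2 in ACEi (-0.38, adjusted p = 0.0635).

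The treatments themselves were compared directly, since a gene called under one and not under the other need not differ between them. None of the 9 members passed the test between Anti-miR-21 and ACEi (0.363% of all genes were called higher and 0.221% lower), while 3 had an unadjusted p under 0.05 and the same 3 had groups that did not overlap (8.99% of all genes). DESeq2 also called 0. Those members were Lama2 (log2 fold change, Anti-miR-21 against ACEi, -0.69, 95% interval -1.19 to -0.19, adjusted p = 0.19), Nid1 (-0.56, -1.09 to -0.02, adjusted p = 0.323) and Lamc1 (-0.24, -0.43 to -0.04, adjusted p = 0.248). With only these 2 groups in the fit, Lama2 passed (-0.69, adjusted p = 0.0493). For Lama5 the interval was -0.34 to 0.14 and for Agrn -0.45 to 0.07, which leaves room for a difference of either sign.

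Set against WT, the treated kidneys still differed. In Anti-miR-21, 7 members were called higher (23.9% of all genes) and Lama1 lower with TMM, though not with FPKM (19.8%), and 5 did not overlap with WT (23.8%). The call of Lama1 was also lost in 6 of the 11 fits that each left out 1 mouse, with upper-quartile scaling (adjusted p = 0.0587), without the filter on low counts (adjusted p = 0.0885) and with only these 2 groups in the fit (adjusted p = 0.0639). Lama5, at 0.26 ± 0.10, was close to the threshold (adjusted p = 0.0424) and lost its call in 7 of the 11 fits that each left out 1 mouse, in flow cell A alone and with DESeq2. Lama2 was 0.87 higher than WT in all mice and 0.55 in flow cell A alone (adjusted p = 0.0544). In ACEi, 7 members were called higher (25.2%) and none lower (22.5%; Lama1 -0.27, adjusted p = 0.0593), and 7 did not overlap with WT (46.1%). Here Nid1 stood at 1.79 ± 0.27 and Lama2 at 1.55 ± 0.25 above WT, against 0.35 ± 0.12 for Lama5, which lost its call without ACEi mouse A11 (adjusted p = 0.117).

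How far a treated mouse had moved from the mean of Veh toward that of WT, in percent of that distance on the log2 CPM scale, puts these values on one footing. In Anti-miR-21 it averaged 76.2 ± 13.3% (SD, n = 6) for Lama5, 63.0 ± 11.3% for Agrn, 53.0 ± 11.2% for Lamc1, 48.5 ± 14.3% for Lama2 and 30.7 ± 12.4% for Nid1. In ACEi it averaged 67.2 ± 14.1% (SD, n = 3) for Lama5, 50.0 ± 14.1% for Agrn, 34.9 ± 4.68% for Lamc1, 11.3 ± 4.69% for Lama2 and 1.62 ± 4.99% for Nid1. Lamb1, Lamb2 and Lama1 averaged 58.4%, 56.9% and 58.0% in Anti-miR-21 and 42.2%, 46.5% and 55.1% in ACEi. The distance for Lama1 is there only under TMM scaling: with library totals or FPKM its Veh and WT means were level. In both groups Lama5 was the farthest along of the 8 members whose Veh and WT means differed and Nid1 the least far. The order was not tested, since all mice share the same Veh and WT means.

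**Figure D3:**
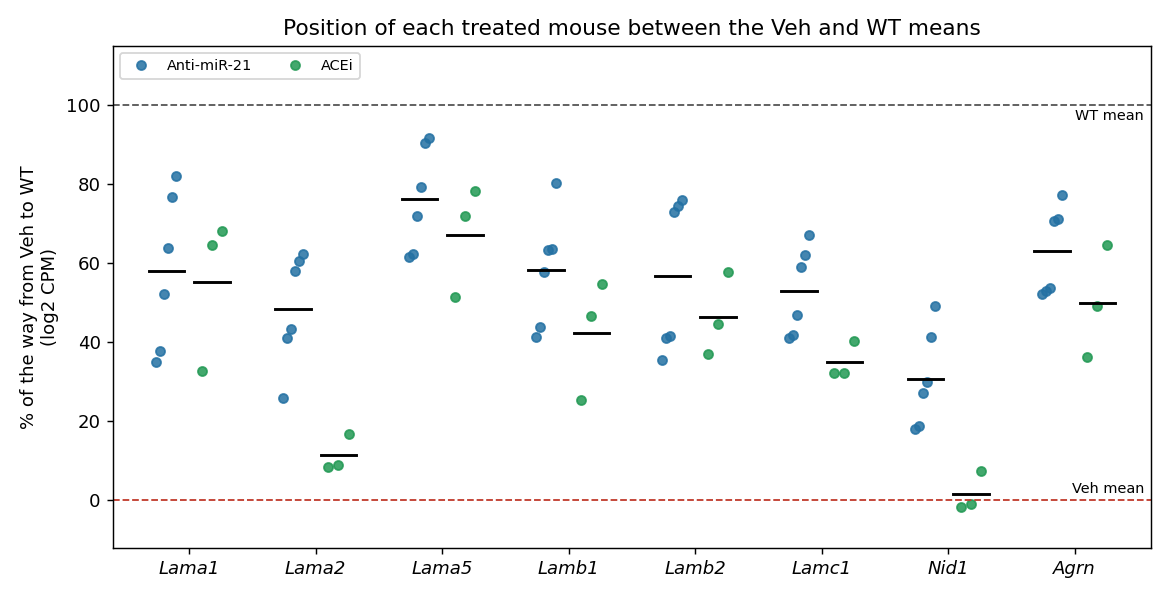
Percent of the distance between the means of Veh (0) and WT (100) on the log2 CPM scale for each Anti-miR-21 and ACEi mouse, with group means as black bars, for the 8 genes that passed the test between Veh and WT under TMM scaling, a distance that Lama1 lacks with library totals. The ACEi mice lie near 0 for Nid1 and Lama2, while both groups are past 50 for Lama5.

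Within Anti-miR-21, mice A2, A8 and A10 were above mice A12, A15 and A22 in each of the 7 members that rose in Veh. For Agrn the first 3 lay between 250 and 254 CPM and the others between 197 and 210.5 CPM. The same 3 mice had the higher summed fibroblast markers of the group (916 to 1118 CPM against 499 to 661 CPM) and the lower summed proximal tubule markers (6394 to 7133 CPM against 8419 to 10660 CPM). Mouse A10 was the one mouse of the 6 on flow cell B. The part of cell composition in this spread was not tested.

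Ratios of 2 members within a mouse do not depend on the scaling between libraries. They were compared by exact two-sided permutation tests on the log2 ratio of counts, with adjustment over 24 tests. The ratio of Lamb1 to Lamb2, the pair exchanged in glomerular development, stayed put: its log2 mean was 0.81 ± 0.12 (SD, n = 5) in WT, 0.73 ± 0.12 (n = 6) in Veh, 0.76 ± 0.10 (n = 6) in Anti-miR-21 and 0.80 ± 0.06 (n = 3) in ACEi. None of its 6 comparisons passed, and the smallest exact permutation p was 0.303.

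The alpha chains shifted among themselves. The mean of the Lama1 to Lama5 count ratio was 0.204 in WT and 0.0652 in Veh, a log2 difference of -1.66 that separated all Veh from all WT mice (exact permutation, adjusted p = 0.0208). It was 0.144 in Anti-miR-21, above Veh in every mouse (log2 difference 1.16, exact permutation, adjusted p = 0.0208). In ACEi it was 0.132, above every Veh mouse too (1.04), but 3 mice against 6 cannot give an exact p below 0.0238, which became 0.0623 after adjustment. The Lama2 to Lama5 ratio was highest in ACEi, with a mean of 0.333 against 0.217 in Anti-miR-21, and the 2 groups did not overlap (log2 difference, Anti-miR-21 against ACEi, -0.61, exact permutation p = 0.0238, the smallest this design allows, adjusted p = 0.0623). In Veh it was 0.238 and in WT 0.141, where it ranged widely (log2 difference 0.83, exact permutation, adjusted p = 0.0623).

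The nidogen ratio changed as strongly. Nid2 counts were 0.580 times those of Nid1 in WT on average and 0.178 times in Veh, and no mouse overlapped (log2 difference -1.65, exact permutation, adjusted p = 0.0208). In Anti-miR-21 the ratio was 0.248, above Veh in the mean by 0.47 on the log2 scale (exact permutation, adjusted p = 0.0208), with ranges that just met, but still below every WT mouse (-1.18, exact permutation, adjusted p = 0.0208). In ACEi it was 0.177, and its difference from Veh was -0.03 (exact permutation, adjusted p = 0.894).

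**Figure D4:**
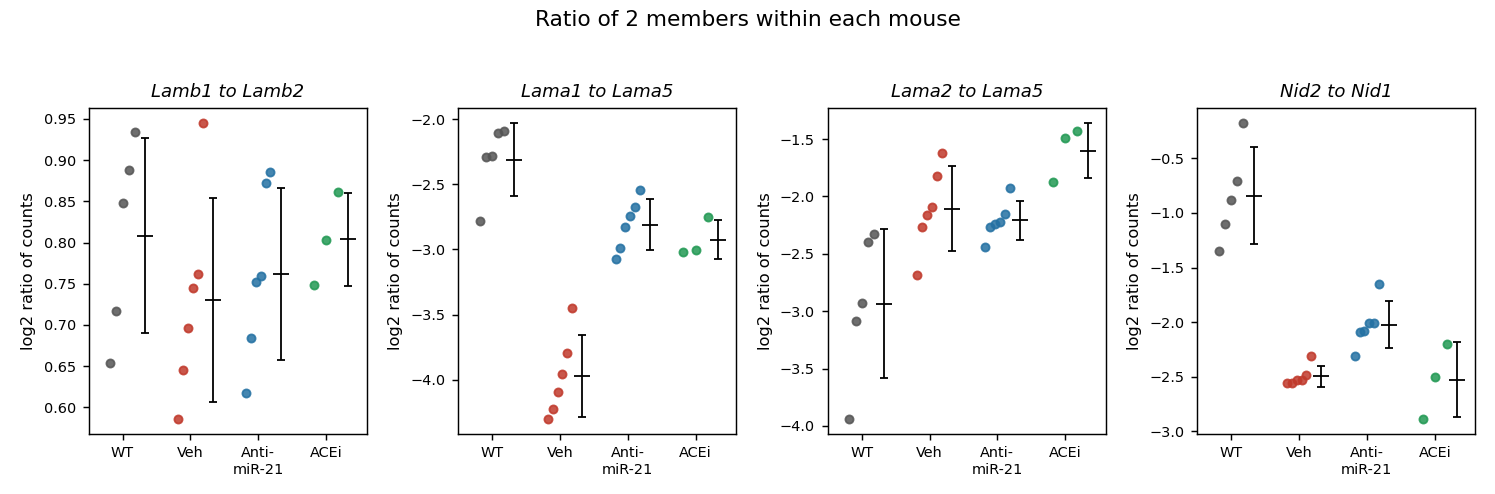
Log2 ratio of the counts of 2 genes within each mouse (vertical axes) for the pairs Lamb1 to Lamb2, Lama1 to Lama5, Lama2 to Lama5 and Nid2 to Nid1, by group, with mean and SD in black. The groups share one range for Lamb1 to Lamb2, while Veh lies below WT for Lama1 to Lama5 and for Nid2 to Nid1.

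Levels can be compared between genes only per length, for which the deposited FPKM were used. In WT, Agrn was the highest at 41.4 ± 5.50 FPKM (SD, n = 5), followed by Lamb1 at 13.9 ± 1.41 and Lama5 at 13.2 ± 1.65, whose ranges overlapped, then Lamb2 at 7.90 ± 1.42, Nid1 at 5.03 ± 2.57, Lamc1 at 3.52 ± 0.57 and Nid2 at 3.48 ± 1.11, neighbours with overlapping ranges. Lama1 at 1.76 ± 0.29 and Lama2 at 1.61 ± 0.74 were the lowest and overlapped. In Veh the order was Agrn (180 ± 43.7 FPKM, n = 6), Lama5 (42.5 ± 7.17), Lamb1 (38.8 ± 4.37), Nid1 (26.8 ± 4.03), Lamb2 (23.2 ± 3.35), Lamc1 (13.5 ± 1.19), Lama2 (8.43 ± 1.08), Nid2 (6.39 ± 1.33) and Lama1 (1.76 ± 0.14). Lama5 and Lamb1, Nid1 and Lamb2, and Lama2 and Nid2 were the neighbours whose ranges overlapped. Lama2 thus moved from level with Lama1 to above it in every Veh mouse.

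In Anti-miR-21 the order ran from Agrn (73.5 ± 10.2 FPKM, n = 6) over Lamb1 (21.4 ± 3.31), Lama5 (18.8 ± 3.13), Nid1 (14.03 ± 3.20), Lamb2 (12.6 ± 2.51), Lamc1 (6.50 ± 1.13), Nid2 (4.45 ± 0.76) and Lama2 (3.54 ± 0.95) to Lama1 (1.75 ± 0.17). In ACEi it ran from Agrn (85.4 ± 12.004 FPKM, n = 3) over Lamb1 (24.7 ± 3.19), Nid1 (21.4 ± 0.90), Lama5 (21.04 ± 2.95), Lamb2 (13.9 ± 1.37), Lamc1 (8.01 ± 0.61), Lama2 (5.89 ± 0.25) and Nid2 (4.89 ± 0.92) to Lama1 (1.81 ± 0.16). Nid1 and Lama5 overlapped in both treated groups. The order rests on the authors' gene model. From counts and annotated exon length the upper Veh order became Agrn, Lamb2, Nid1, Lamb1 and Lama5, as the deposited Veh values were 1.88 times those from counts for Lama5, 1.69 times for Lamb1 and 0.979 times for Lamb2. Divided in this way, the counts of Agrn gave 15.2 FPKM in WT, 2.72 times less than the deposited value, though still the highest, and Lama5 came to 7.11. Of the members, the authors' annotation flagged Lama5 and Nid2 as confounded, and what that flag means was not stated.

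**Figure D5:**
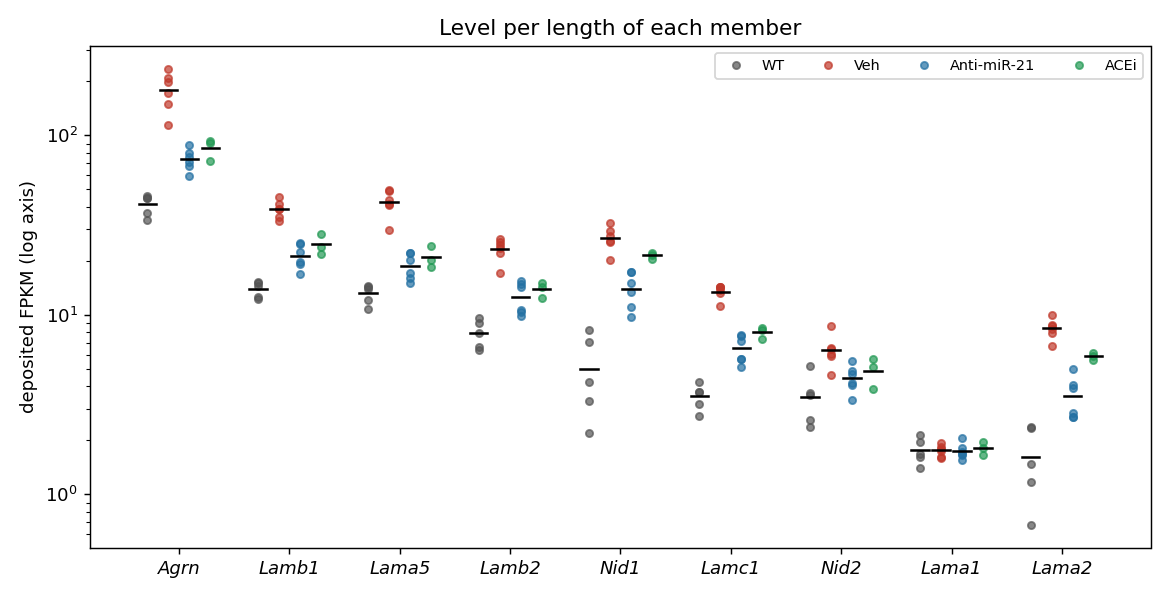
Deposited FPKM of each of the 9 genes on a log axis, ordered by the WT mean, with every mouse as a point and group means as black bars. Agrn is highest in all 4 groups, Lama1 is level across the groups, and Lama2 rises from the Lama1 level in WT to above it in Veh.

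Other laminin chains were measured beside them. Against WT, Veh was higher in Lamb3, a beta chain of epithelial anchoring laminin, by 1.71 ± 0.52 on the log2 scale (adjusted p = 0.00559), and in Lama4, the alpha chain of vessel walls, by 1.41 ± 0.20 (adjusted p = 2.45e-06). Lama3 was at -0.52 (adjusted p = 9.21e-05), less than the shift of the median gene with the scaling, and its groups overlapped, as did those of Lamb3, which ran from 1.47 to 21.01 CPM in WT. Lamb3 and Lama4 were called lower than Veh under both treatments: Lamb3 by 2.15 in Anti-miR-21 (adjusted p = 0.000883) and 1.94 in ACEi (adjusted p = 0.0199), where all treated mice were below all Veh mice.

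Among 10 other basement membrane linkers and proteoglycans, 8 were called higher in Veh against WT (39.0% of all genes were) and 1 lower (34.0%). The median log2 fold change of the 10 was 1.59. The largest differences were those of Col15a1, a proteoglycan-type collagen (3.70 ± 0.27, adjusted p = 1.96e-10), Sparc, a collagen-binding matricellular protein (3.13 ± 0.17, adjusted p = 4.72e-12), and the fibulins Fbln2 (2.87 ± 0.22, adjusted p = 3.99e-10) and Fbln1 (2.28 ± 0.25, adjusted p = 6.66e-08). Anti-miR-21 lowered 7 of the 10 (30.5% of all genes were called lower) and ACEi 6 (19.1%). With TMM, Fbln1 passed under neither treatment, at -0.49 (adjusted p = 0.0596) and -0.16 (adjusted p = 0.67). With library totals alone it was called lower in Anti-miR-21 (-0.80, adjusted p = 0.00497) but not in ACEi (-0.42, adjusted p = 0.223).

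Of 9 laminin and agrin receptors, 8 were tested. In Veh against WT, 7 of them were called higher (39.0% of all genes were) and 1 lower (34.0%). The integrin chain Itgb4, the laminin receptor of hemidesmosomes, rose by 2.49 ± 0.22 (adjusted p = 3.42e-09), Bcam, a receptor for the Lama5 chain, by 1.78 ± 0.17 (adjusted p = 1.26e-08), and Itga3, the integrin chain that podocytes use to bind laminin, by 1.46 ± 0.12 (adjusted p = 1.49e-09). Itgb1, its beta partner, rose by 0.81 ± 0.08 (adjusted p = 1.38e-08). All 4 were called lower in Anti-miR-21 than in Veh (30.5% of all genes were). In ACEi, Itgb1 was left uncalled with TMM (-0.20, adjusted p = 0.0927) and the other 3 were lower (19.1% of all genes were). With library totals alone Itgb1 was called lower there too (-0.47, adjusted p = 0.00421).

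Enzymes that build matriglycan, the sugar by which dystroglycan holds laminin and agrin, mostly ran opposite to the members under TMM scaling. Of the 7 measured, 6 were called lower in Veh than in WT (34.0% of all genes were) and 1 higher (39.0%). Among the lower ones were Pomt1 (-0.96 ± 0.08, adjusted p = 1.5e-09), B4gat1 (-0.65 ± 0.07, adjusted p = 2.08e-08) and Pomt2 (-0.47 ± 0.06, adjusted p = 3.32e-07). The median of the 7 was -0.43. Anti-miR-21 raised 5 of the 7 against Veh (28.8% of all genes were called higher) and ACEi raised 4 (21.0%). Pomt1 rose by 0.49 in Anti-miR-21 (adjusted p = 1.94e-05) and by 0.53 in ACEi (adjusted p = 0.000193). With library totals alone only Pomt1 of these 3 was still called lower in Veh than in WT (-0.38, adjusted p = 2.3e-05), while B4gat1 was at -0.06 (adjusted p = 0.397) and Pomt2 at 0.11 (adjusted p = 0.129).

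Each member's pattern was set beside every gene whose mean log2 CPM reached 1, by the root mean square difference of mean-centred log2 CPM over the 20 mice. Among members, Lamb1 and Lamb2 were the closest pair at 0.10, Lama5 lay 0.16 from Lamb2 and 0.16 from Agrn, and Lama2 and Nid1 lay 0.19 from each other but 0.56 and 0.65 from Lama5. Lama1 and Nid1 were the farthest apart at 1.04. Over 13196 genes, the nearest to Nid1 were Svep1 (0.16), Lama2 (0.19) and Adcy3 (0.21), and the nearest to Lama2 were Nid1, Sdc3 (0.21) and Zfp9 (0.21). Agrn was nearest to Klhdc8b (0.10), Rab3d (0.11) and Plec (0.11), and Lama5 to Adgrg1, Plxnb1 and Fam3c (each 0.11). Lamc1 was nearest to Ehbp1l1, Tgfbr2 and Slc12a4 (each 0.09), Lamb1 to Usp22 (0.08), Man2a2 (0.09) and Fndc3b (0.09), and Lamb2 to Cic, Man2a2 and Lamb1 (each 0.10). Lama1 was nearest to Ptpn4, Pitpnc1 and Dcaf8 (each 0.10) and Nid2 to Pip5k1a, Zbtb14 and Zfp146 (each 0.17).

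Markers of the cell types that make or border these membranes did not all move alike between the groups. Beside their calls in Veh against WT, 39.0% of all genes were called higher and 34.0% lower. Fibroblast markers, all 5 called higher in Veh, summed to 111 to 283 CPM in WT, 2488 to 3184 CPM in Veh, 499 to 1118 CPM in Anti-miR-21 and 1230 to 1361 CPM in ACEi. The collagen genes Col1a1 and Col3a1 weighed most in the Veh sum, with means of 1177 and 1414 CPM. Against Veh, 4 of the 5 were called lower in Anti-miR-21 (30.5% of all genes were) and 2 in ACEi (19.1%). Dcn did not fall in Anti-miR-21, with a mean of 186 CPM against 181 CPM in Veh. Mesangial and pericyte markers, 4 of 5 higher in Veh, summed to 114 to 176 CPM in WT and 368 to 425 CPM in Veh, and to 217.7 to 289 CPM in Anti-miR-21 and 297 to 310 CPM in ACEi. Podocyte markers, 5 of 6 higher in Veh, went from 202.7 to 338 CPM in WT to 370 to 441 CPM in Veh and were no lower under treatment, at 452 to 509 CPM in Anti-miR-21. Endothelial markers, 2 of 5 higher and 1 lower in Veh, spanned 86.4 to 244 CPM in WT and 199 to 253 CPM in Veh. Macrophage markers (6 of 6 higher) summed to 140 to 154 CPM in WT and 817 to 998 CPM in Veh, and injured tubule markers (4 of 4 higher) to 22.3 to 34.5 CPM and 818 to 1327 CPM. None of these markers was at 0 in all mice of a group, but the injured tubule marker Krt20 was at 0 in WT mouse A3 (WT mean 0.21 CPM). Within WT, A18 had the lowest endothelial (86.4 CPM), fibroblast (111 CPM), mesangial and podocyte sums as well as the lowest Lama2 and Nid1, and A6 had the highest of these sums. The part of cell composition in the members' differences was not tested.

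Libraries came from 2 flow cells that each held all groups, with 1 of the ACEi mice on flow cell A. Within flow cell A, Veh exceeded WT by 1.38 for Lama2 and 1.43 for Nid1 (all mice 1.78 and 1.83), by 1.18 for Lama5, 1.33 for Lamc1 and 1.61 for Agrn, and by 0.03 for Nid2, with the same calls as over all mice. Anti-miR-21 against Veh likewise kept its 8 calls there, Nid1 at -0.52 (adjusted p = 0.0416). In flow cell B, with 2 WT, 2 Veh and 2 ACEi mice, Veh against WT called 8 members, Lama2 at 2.57, Nid1 at 2.65, Lama5 at 0.88 and Agrn at 1.18, but Nid2 passed (0.76, adjusted p = 0.00903) and Lama1 did not (-0.22, adjusted p = 0.207). In ACEi against Veh all 9 members kept their sign there and none was called, with 3 at an unadjusted p under 0.05. Lama5 stood at -0.46 (adjusted p = 0.107), Lamc1 at -0.43 (adjusted p = 0.0582) and Agrn at -0.44 (adjusted p = 0.168). ACEi was not tested within flow cell A, where it had 1 mouse.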

How the data were processed

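Whole-kidney RNA of 20 mice was sequenced as 100 bp pairs. Reads were mapped by the authors to GRCm38 (OmicSoft) and deposited as estimated counts (expected counts, not normalized) for 47069 Ensembl genes, and as FPKM, the deposited values being scaled for gene length and depth, for 33368 gene entries. FPKM columns of 3 further libraries matched no sample and were not used. Of the positive counts 27.9% were not whole, and counts were rounded before testing. Each mouse had between 28474301 and 29479629 counts. Expression was measured once per mouse, so p-values measure the spread between mice. No library pair was identical.

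Genes passing filterByExpr (minimum count 10, total 15) entered a quasi-likelihood fit in edgeR 4.0.16 (R 4.3.3) over all 20 mice, with TMM scaling and 1 coefficient per group, Benjamini-Hochberg adjustment over 17622 genes and a threshold of 0.05. The SE was taken from the fold change and its F. Alternatives, with DESeq2 1.42.0 and limma 3.58.1 on log2(FPKM + 1), are given in the closing section. Ratios used counts plus 0.5 and scipy 1.17.1. In simulated Veh and WT counts with 200 of 17622 genes changed by 1 on the log2 scale, 78% of those were called. Of the calls there, 7.14% fell on unchanged genes. In the data 12867 of 17622 genes were called between Veh and WT, so these shares do not carry over to the real comparison. Members and gene lists were chosen with earlier results of these data known. All members are named; of each list, the 4 genes with the largest change between Veh and WT, some of which are not reported here; and for each member the 3 nearest genes by pattern. The extraction text names adipose tissue, while the labels name kidney. The labels' library table gives ramipril as 4 mg/kg.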

Additional observations from a re-analysis of the deposited data

Results flagged for a closer look

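The log2 ratio of Nid2 to Nid1 in Veh mouse A20 was -2.31, while the other 5 Veh mice lay close together below it, so its gap to the nearest of them took up 0.696 of the group's range. A20 had the highest Veh level of both genes. It was the only such sample in 39 groups examined, and chance alone singles out about 1 group in 20.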

How the results depend on the processing

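Of the counts of called members recomputed under other settings, 70 stayed within 1.5 times of the value given. The exceptions were ACEi against Veh in flow cell B alone, where 0 were called, and Anti-miR-21 against ACEi with only the 2 groups in the fit, where 1 member, Lama2, was called. The settings without the adipocyte-rich libraries and with flow cell B alone were chosen after seeing the data. Leaving out 1 mouse at a time gave 8 to 9 called members in Veh against WT, 7 to 8 in Anti-miR-21 and 5 to 6 in ACEi against Veh. No paired analysis was possible because the mice carry unique tags.

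Reversals concerned Lama1 and values near 0. Lama1 was 0.0052 and 0.0114 higher in Veh than in WT with limma on log2(FPKM + 1) and log2(FPKM + 0.1). In Anti-miR-21 against Veh it was -0.003 with library totals and -0.0069 and -0.0108 in these FPKM fits; against ACEi, -0.052, -0.0344 and -0.0514, and -0.006 with flow cell as a term; against WT, 0.0007 with log2(FPKM + 0.1); and in ACEi against WT, 0.0391, 0.0327 and 0.0521, and 0.0562 in flow cell B alone. Nid1 in ACEi against Veh was 0.0064 with flow cell as a term. Leaving out single mice gave -0.0857 to 0.0374 for that Nid1 value, -0.1775 to 0.0734 for Nid2 in ACEi against Veh, -0.2167 to 0.0342 for Nid2 and -0.0434 to 0.0567 for Lama1 between the treatments.

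In flow cell A alone the Lama1 to Lama5 ratio differed by -1.9829 between Veh and WT (no exact test can pass there) and by 1.3683 between Anti-miR-21 and Veh (exact permutation, adjusted p = 0.0952). Nid2 to Nid1 differed by 0.5159 and -0.9156 in Anti-miR-21 against Veh and WT, neither passing, and Lama2 to Lama5 by 0.0817 in Anti-miR-21 against Veh. Without single mice, Lama1 to Lama5 ranged from -0.6175 to -0.4451 in Anti-miR-21 against WT, Lama2 to Lama5 from 0.5757 to 0.9795 in Veh and from 0.4737 to 0.8775 in Anti-miR-21 against WT, and Nid2 to Nid1 from -0.1981 to 0.1461 in ACEi against Veh. The cause was not tested. FPKM from counts and exon length moved 16 of 36 levels by more than 1 SD. With 3 ACEi mice, differences from Veh for Lama2, Nid1 and Nid2 are bounded only by their intervals.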
